A study of Mus musculus with 28 samples.

Results

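Endoplasmic reticulum (ER) stress genes were followed in mouse small-intestinal organoids given single ligands of the BMP and TGF-beta families. The set was taken by name and comprised 10 genes of the unfolded protein response and the integrated stress response, Hspa5, Hsp90b1, Xbp1, Ern1, Ern2, Atf4, Atf6, Ddit3, Trib3 and Asns, out of 29413 rows in the BMP table and 55416 in the Tgfb table. Ddit3 held 2 rows in each table, so the 10 genes filled 11 rows. The BMP table covered 20 samples, of which 4 were untreated controls and 4 had received BMP2; BMP3, BMP4, BMP5 and BMP7 had 3 samples each. A separate Tgfb table set 3 samples treated with Tgfb against 3 controls of their own. All were epithelial organoids of wild-type C57BL/6 mice, grown from crypts in ENR medium that held no added BMP or Tgfb, and the recombinant ligand was present at 500 ng/ml for 24 h. The protocol gives dose and time for the BMPs and names no separate ones for Tgfb. Nothing in the labels ties the samples to separate animals or cultures, so p-values measure the spread between these samples only, which may be technical.

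The ER folds secreted and membrane proteins, and unfolded protein there is sensed by IRE1, PERK and ATF6. IRE1 splices Xbp1 mRNA into the form that encodes an active transcription factor, ATF6 is released from the membrane by cleavage, and PERK phosphorylates eIF2alpha, which slows translation in general and favours translation of ATF4. ATF4 is also raised by amino acid shortage through another eIF2alpha kinase, and this wider programme is called the integrated stress response. In the gut the secretory Paneth and goblet cells carry a heavy folding load. Gene totals as deposited do not separate spliced from unspliced Xbp1 and do not show translation of Atf4.

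Promoter stretches of 4 members are shown first because they hold the letters of known stress elements, given in capitals. They were read from RefSeq's table on GRCm38.p6, in which 8 of the 10 members had an entry; Ern2 and Atf6 had none. The deposited values rest on another build, so these coordinates apply to the sequences only. For Hspa5 (chr2:34771840-34772089, plus strand) and Hsp90b1 (chr10:86705445-86705694, minus strand) the 250 bases before the start are printed, for Asns (chr6:7693210-7693309, minus strand) the last 100 bases before the start, and for Trib3 (chr2:152344028-152344057, minus strand) 30 bases around a match after the start.
Hspa5: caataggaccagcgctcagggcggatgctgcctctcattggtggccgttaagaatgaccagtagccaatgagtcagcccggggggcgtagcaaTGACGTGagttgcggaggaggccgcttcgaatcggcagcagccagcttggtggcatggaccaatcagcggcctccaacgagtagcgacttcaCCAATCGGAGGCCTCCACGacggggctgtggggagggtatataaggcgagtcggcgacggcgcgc
Hsp90b1: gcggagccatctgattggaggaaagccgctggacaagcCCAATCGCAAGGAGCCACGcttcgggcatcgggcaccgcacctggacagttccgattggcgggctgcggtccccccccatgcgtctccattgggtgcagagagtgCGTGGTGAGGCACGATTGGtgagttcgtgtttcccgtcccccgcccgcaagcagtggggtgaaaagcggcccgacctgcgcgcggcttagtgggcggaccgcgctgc
Asns: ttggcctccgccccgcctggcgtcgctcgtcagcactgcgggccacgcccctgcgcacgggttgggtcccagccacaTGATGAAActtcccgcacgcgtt
Trib3: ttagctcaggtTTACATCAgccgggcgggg

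The ER stress response element, CCAAT and CCACG separated by 9 bases, is the site through which ATF6 and NF-Y act. Searched on both strands of the 300-base promoter windows, it was found once for Hspa5, beginning 65 bases upstream of the start. Hsp90b1 held it at 2 places, beginning 212 bases upstream on the gene's strand and 107 bases upstream on the opposite strand. Of 32851 promoter windows in the table, 0.119% held this element. Hspa5 also held TGACGTG, the core of a site bound by ATF6 and XBP1, at 157 bases upstream, a motif in 2.01% of windows. The C/EBP-ATF site TGATGNAA, through which ATF4 acts, was present for Asns at 23 bases upstream and for Trib3 at 14 bases downstream on the opposite strand, and in 3.97% of all windows. None of these matches overlapped another. The windows of Ddit3, Xbp1, Ern1 and Atf4 held none of the 3 motifs, which says only that these letters are not in those windows.

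Each BMP-table library held 21358620 to 24784834 reads, recovered from the deposited values, and values are normalized counts, that is, the reads of a gene after division by the sample's size factor. Summed markers of epithelial identity ran from 150330 to 942894 normalized counts per sample, against 13.2 to 124 for mesenchymal and 93.8 to 263 for immune markers, with Des at 0 in all samples of 5 of the 6 groups. Scaling matters for BMP2 and BMP4: with every sample set to the same total, the median log2 fold change of all genes moved from -0.03 to -0.48 for BMP2 and from 0.04 to -0.35 for BMP4. Cell type markers also moved with those groups, and with BMP5 and BMP7. Summed stem cell markers were 151583 to 180945 in the controls, 28478 to 44625 with BMP2, 13758 to 17032 with BMP4, 83329 to 147324 with BMP5 and 69233 to 83429 with BMP7. Enterocyte markers were 91650 to 169792 in the controls and 542030 to 657890 with BMP4, goblet cell markers were 28378 to 43673 in the controls and 92632 to 151313 with BMP4, and Paneth cell markers were 120028 to 149297 in the controls, 40261 to 105685 with BMP2 and 85492 to 103710 with BMP7. Their part in the results below was not tested, and in bulk RNA a change in the number of cells of a type and a change in RNA per cell cannot be told apart.

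The ligands separated into those with large and those with small or no detected changes in these genes, a separation that all tested genes also showed. With BMP2, 4 of 10 genes rose (Ddit3, Trib3, Atf4 and Ern1) and 2 fell (Ern2 and Hsp90b1), by limma with Benjamini-Hochberg adjusted p under 0.05 over 14746 genes. With BMP4, 6 of 10 rose (Ddit3, Trib3, Atf4, Hspa5, Xbp1 and Atf6) and none fell. BMP5 lowered Hsp90b1 and Asns, BMP7 lowered Asns, and BMP3 moved no member past the threshold. Of all 14746 genes, the same test called 11077 (BMP2), 9597 (BMP4), 4773 (BMP7), 3884 (BMP5) and 0 (BMP3) in either direction. On the deposited scaling the 6 of 10 members called for BMP2, and likewise for BMP4, did not exceed the share of all genes. For comparison, 36.8% of all tested genes were called higher and 38.4% lower with BMP2, and 33.7% higher and 31.4% lower with BMP4. On the deposited scaling 4 of 10 higher is thus near the background and 6 of 10 is above it. After quantile normalization the BMP4 count was 3 of 10, near its background of 4770 of 14746 genes. Whether 6 of 10 exceeds chance was not tested, and 10 genes are few. Under BMP5 16.5% of all genes were higher and 9.87% lower, and under BMP7 19.2% and 13.2%. The median log2 fold change of the members was 0.19 with BMP2 and 0.55 with BMP4, against -0.03 and 0.04 over all genes. An F-test for any difference among the 5 ligands, with the controls not compared, called all 10 members, where 84.1% of all genes were called. With quantile normalization or the same total it called 9, all but Atf6. The split of the members also moved with scaling: for BMP2 it was 4 higher and 5 lower after quantile normalization and 3 and 5 with the same total, and BMP4 gave 3 and 1, and 5 and 2. Of all 14746 genes, quantile normalization called 5352 higher and 5679 lower for BMP2, and 4770 and 5010 for BMP4. The same total called 3627 higher and 7783 lower for BMP2, and 3100 and 6864 for BMP4, so the split of all genes moved with it.

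**Figure D1:**
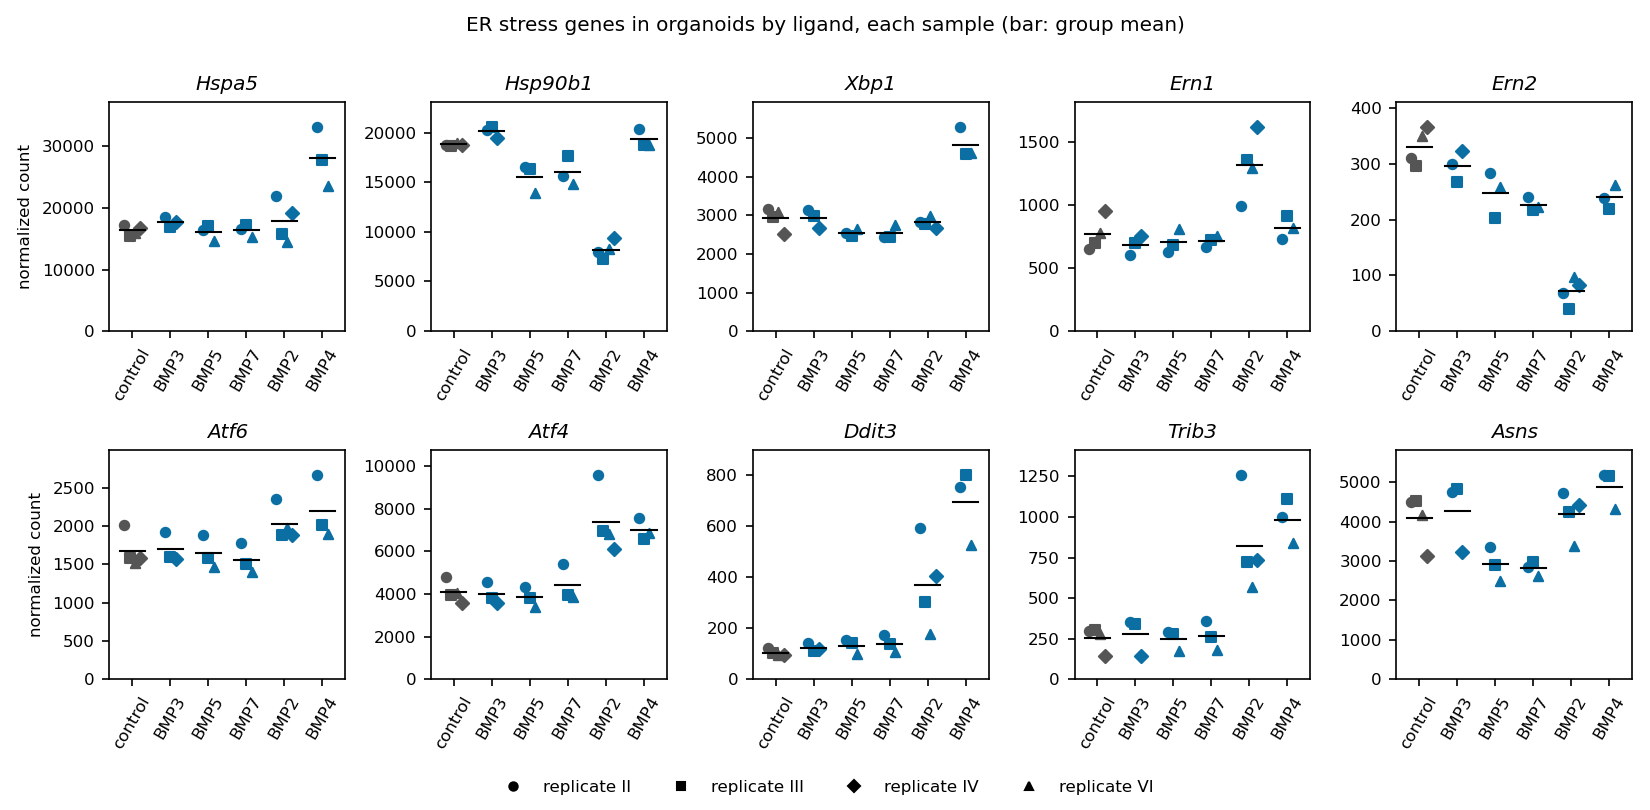
Normalized counts of the 10 ER stress genes in every sample of the BMP table, 1 panel per gene, with the ligand on the x axis, 1 symbol per replicate number and a bar at each group's mean; every vertical axis starts at 0. Ddit3 and Trib3 lie highest with BMP2 and BMP4, Hsp90b1 and Ern2 lie lowest with BMP2, and Xbp1 is highest with BMP4.

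**Figure D2:**
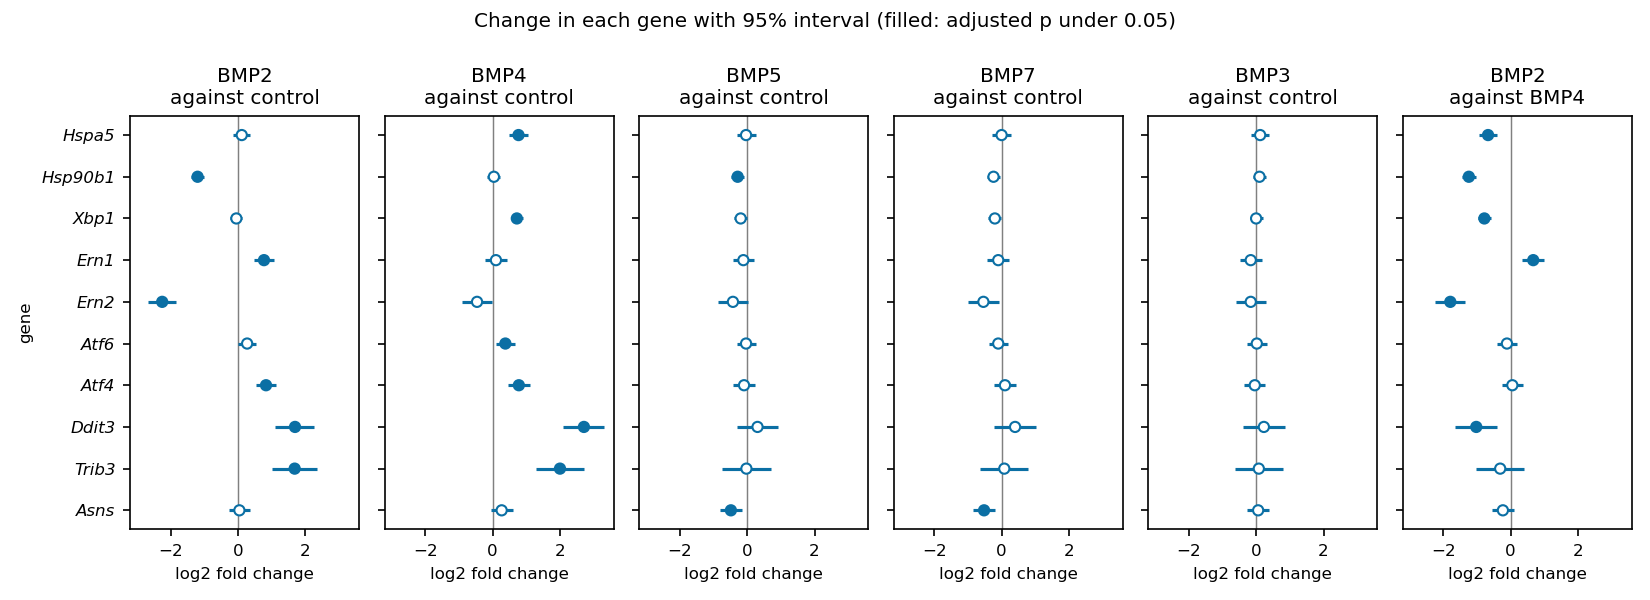
Log2 fold change of each gene with its 95% interval from limma, 1 panel per comparison, filled where the adjusted p is under 0.05. BMP4 has 6 filled points, all right of 0, BMP2 has 4 right and 2 left of 0, and BMP3 has none.

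The 2 abundant ER chaperones parted. Hspa5 (ENSMUSG00000026864) encodes BiP, the Hsp70 chaperone of the ER lumen that also holds the sensors inactive. It read 17200, 15500, 16000 and 16700 normalized counts in controls II, III, VI and IV, and 33200, 27800 and 23600 in BMP4 samples II, III and VI. All BMP4 samples lay above all controls, a log2 rise of 0.77 (SE 0.132, limma adjusted p = 4.68e-05), and the BMP4 mean was 1.72 times that of the controls. After quantile normalization the rise was 0.18 with an adjusted p of 0.313, so its size depends on the scaling. BMP2 samples II, III, VI and IV read 22000, 15800, 14400 and 19200, overlapping the controls on both sides (0.11, 95% interval -0.15 to 0.36, adjusted p = 0.435). With quantile normalization or the same total Hspa5 came out lower with BMP2, at -0.49 and -0.35.

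Hsp90b1 (ENSMUSG00000020048) encodes GRP94, the Hsp90 chaperone of the ER lumen, which matures integrins and Toll-like receptors. Controls II, III, VI and IV lay close together at 18800, 18700, 19000 and 18800 normalized counts. BMP2 samples II, III, VI and IV read 7950, 7240, 8280 and 9340, all below every sample of every other group. The BMP2 mean was 43.6% of the control mean, a log2 fall of -1.20 (SE 0.087, limma adjusted p = 3.72e-10), and it stayed past the threshold in 18 of 18 alternative settings. BMP4 samples II, III and VI read 20400, 18800 and 18800, overlapping the controls (0.04, 95% interval -0.16 to 0.23). Quantile normalization and the same total put this BMP4 value at -0.58 and -0.36, both past the threshold. Between the ligands, Hsp90b1 was lower with BMP2 than with BMP4 by a log2 difference of -1.24 (SE 0.094, limma adjusted p = 1.33e-09), and Hspa5 by -0.67 (SE 0.132, adjusted p = 0.000211).

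A ratio of 2 genes within a sample does not depend on a scaling by 1 factor per sample, though quantile normalization can change it. Hspa5 stood at 0.83 to 0.92 times the Hsp90b1 value in the 4 controls and at 0.82 to 0.92 with BMP3. It reached 1.74 to 2.77 with BMP2, where Hsp90b1 fell, and 1.26 to 1.63 with BMP4. With BMP5 it was 0.994 to 1.06 and with BMP7 0.977 to 1.06. All samples of the 4 ligands other than BMP3 lay above all controls, and the highest ratio of all was BMP2 sample II. The ratio shows unequal change of the 2 genes, given as a description without a test.

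**Figure D3:**
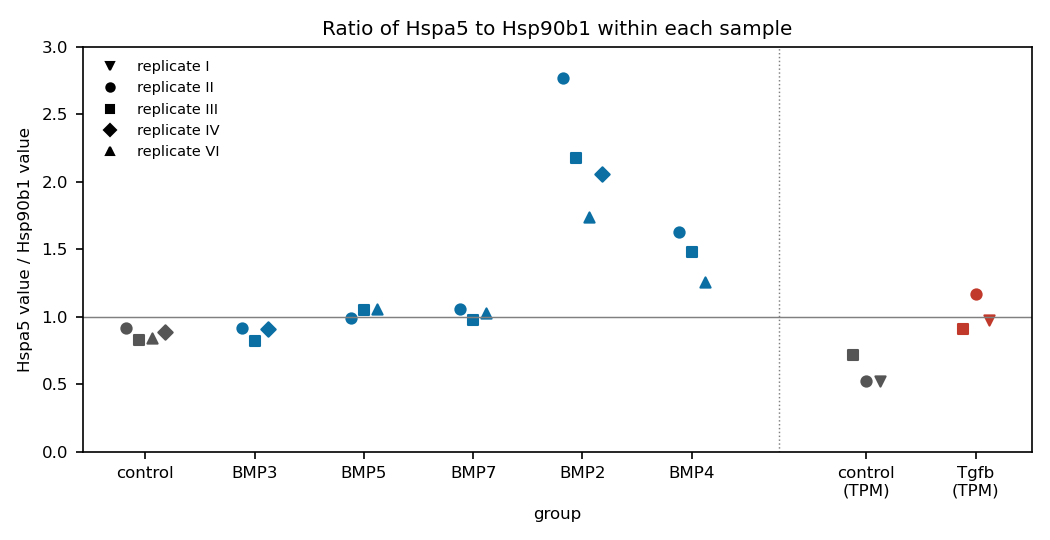
Hspa5 value divided by the Hsp90b1 value within each sample, with groups on the x axis and the Tgfb table, in TPM, right of the dotted line. BMP2 samples sit at 1.74 to 2.77 and BMP4 samples at 1.26 to 1.63, above the controls at 0.83 to 0.92.

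The IRE1 genes changed in opposite directions with BMP2. Ern1 (ENSMUSG00000020715) encodes IRE1alpha, the widely expressed kinase and endoribonuclease of this branch. It read 652, 696, 774 and 954 normalized counts in controls II, III, VI and IV, and 993, 1360, 1290 and 1620 in BMP2 samples II, III, VI and IV. Every BMP2 sample exceeded every control, though BMP2 sample II only narrowly. The log2 rise was 0.77 (SE 0.141, limma adjusted p = 7.12e-05); setting all samples to the same total left 0.31 (adjusted p = 0.0689). With BMP4 Ern1 read 729, 909 and 821 in samples II, III and VI, within the control range (0.10, 95% interval -0.22 to 0.42). The difference of 0.67 between BMP2 and BMP4 passed the test (SE 0.152, adjusted p = 0.000793).

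Ern2 (ENSMUSG00000030866) encodes IRE1beta, the paralog found in mucus-secreting epithelia. Controls II, III, VI and IV read 310, 297, 351 and 367 normalized counts. BMP2 samples II, III, VI and IV read 69.2, 39.6, 97.5 and 83.5, all far under every other sample of the table. The BMP2 mean was 21.9% of the control mean, a log2 fall of -2.25 (SE 0.197, limma adjusted p = 5.7e-09). It was also lower with BMP2 than with BMP4, by -1.79 (SE 0.213, adjusted p = 5.67e-07). BMP4 samples read 239, 220 and 263, all below the controls, but the fall of -0.46 missed the threshold (95% interval -0.90 to -0.01, adjusted p = 0.0673). It passed in 5 of 17 alternative settings: at -0.86 with the same total (adjusted p = 0.00146), -0.56 with edgeR (0.0147), -0.45 with DESeq2 (0.0148), -0.46 with only the groups compared (0.00912) and -0.40 with the replicate number as a block (0.0423). Beside the BMP2 fall, summed goblet cell markers ran from 31055 to 68048, overlapping the controls, while Paneth and stem cell markers lay below all controls; the part of these cell types in the Ern2 values was not tested.

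Xbp1 (ENSMUSG00000020484), whose mRNA is the splicing substrate of IRE1 and whose product drives chaperone and degradation genes, was called higher with BMP4 and with no other BMP. Controls II, III, VI and IV read 3160, 2950, 3100 and 2520 normalized counts, and BMP4 samples II, III and VI read 5300, 4600 and 4610. No BMP4 sample overlapped a control (0.72, SE 0.089, limma adjusted p = 9.93e-07), and the rise passed in 17 of 17 alternative settings. Its size depended on the scaling, at 0.31 after quantile normalization and 0.32 with the same total. BMP2 samples lay between 2680 and 2980, inside the control range (-0.05, 95% interval -0.23 to 0.12), and the difference between BMP2 and BMP4 was -0.78 (SE 0.089, adjusted p = 3.31e-07). With quantile normalization and the same total Xbp1 was called lower with BMP2, at -0.49 and -0.51.

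Atf6 (ENSMUSG00000026663) encodes the membrane-bound transcription factor of the third branch. It read 2010, 1590, 1520 and 1580 normalized counts in controls II, III, VI and IV and 2670, 2010 and 1900 in BMP4 samples II, III and VI. The groups met at 2010, and the BMP4 rise of 0.38 was just past the threshold (SE 0.137, limma adjusted p = 0.0202). The rise passed in 12 of 17 alternative settings, among them the replicate number as a block (0.36, adjusted p = 2.54e-05). It was not past the threshold without BMP4 sample II (0.23, adjusted p = 0.164) or without control VI (0.34, 0.0552). Nor did it pass with edgeR (0.29, 0.061) or after quantile normalization (0.08, 0.638), and it was -0.02 with the same total. BMP2 samples lay between 1880 and 2350 (0.27, adjusted p = 0.0571). This BMP2 value passed the threshold without control II (0.37, adjusted p = 0.0163) and with only the groups compared (adjusted p = 0.0476). The fit without control II kept BMP2 sample II, the highest of its group, so it is uneven. The BMP2 value also passed with the replicate number as a block (0.27, adjusted p = 8.98e-05). It was -0.06 after quantile normalization and -0.18 with the same total.

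Atf4 (ENSMUSG00000042406) encodes the transcription factor that induces amino acid transport, amino acid synthesis and Ddit3 and Trib3. Controls II, III, VI and IV read 4800, 3960, 4050 and 3580 normalized counts. BMP2 samples II, III, VI and IV read 9590, 6940, 6810 and 6090, and BMP4 samples II, III and VI read 7570, 6590 and 6850. Both groups lay wholly above the controls, with log2 rises of 0.83 for BMP2 (SE 0.140, limma adjusted p = 2.81e-05) and 0.78 for BMP4 (SE 0.151, adjusted p = 0.00018). Quantile normalization left these rises at 0.29 (adjusted p = 0.047) and 0.31 (adjusted p = 0.0527), and the same total left them at 0.37 and 0.38. The difference between the 2 ligands was 0.05 with a 95% interval of -0.27 to 0.37, which does not show that they act alike.

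On the deposited scaling the largest log2 change of any member was that of Ddit3 with BMP4; with the same total it was 2.31, and that of Ern2 with BMP2, at -2.70, was larger. Ddit3 (ENSMUSG00000025408) encodes CHOP, the transcription factor that links prolonged ER stress to cell death. It read 123, 102, 96.6 and 94.9 normalized counts in controls II, III, VI and IV and 754, 800 and 524 in BMP4 samples II, III and VI. The BMP4 mean was 6.65 times the control mean, a log2 rise of 2.71 (SE 0.295, limma adjusted p = 2.3e-07). BMP2 samples II, III, VI and IV read 591, 303, 176 and 403, so that all exceeded the controls while spreading widely among themselves. The BMP2 rise was 1.69 (SE 0.273, adjusted p = 1.71e-05), and Ddit3 was lower with BMP2 than with BMP4 by -1.02 (SE 0.295, adjusted p = 0.0052), although BMP2 sample II lay within the BMP4 range. A second row named Ddit3 (ENSMUSG00000116429) had group means of 0.304 to 9.41 normalized counts, under the filter, and it is a second gene model at the same name, so reads may be split between the 2 rows.

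Trib3 (ENSMUSG00000032715), a pseudokinase induced by ATF4 and CHOP that restrains Akt signalling, followed Ddit3. Controls II, III, VI and IV read 295, 305, 276 and 142 normalized counts. BMP2 samples II, III, VI and IV read 1260, 721, 568 and 738, and BMP4 samples II, III and VI read 1000, 1110 and 837. Both groups stood above all controls, by 1.68 with BMP2 (SE 0.316, limma adjusted p = 9.04e-05) and 2.0 with BMP4 (SE 0.341, adjusted p = 4.72e-05). BMP2 sample II was again the highest and sample VI the lowest of its group, the order also seen for Ddit3. The difference between BMP2 and BMP4 was -0.31 with a 95% interval of -1.03 to 0.40 and was not called.

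Asns (ENSMUSG00000029752) encodes asparagine synthetase, a classical ATF4 target, and it was not called where Atf4 and Trib3 rose. Controls II, III, VI and IV read 4500, 4530, 4180 and 3130 normalized counts. BMP2 samples lay between 3380 and 4720 (0.04, 95% interval -0.27 to 0.35) and BMP4 samples between 4330 and 5190 (0.27, 95% interval -0.06 to 0.60). Neither group was called. Both values were negative with quantile normalization or the same total, and these called Asns lower with BMP2, at -0.46 (adjusted p = 0.0111) and -0.42 (0.019). Under BMP7 the samples II, III and VI read 2840, 2990 and 2620, all below the lowest control, a log2 fall of -0.52 (SE 0.158, limma adjusted p = 0.0164) that was not past the threshold without BMP7 sample VI (-0.47, adjusted p = 0.0697). BMP5 samples II, III and VI read 3370, 2900 and 2500, with sample II above control IV. The BMP5 fall of -0.48 (SE 0.158, adjusted p = 0.0318) was lost on leaving out BMP5 sample III or VI or control II, III or VI, where the adjusted p ran from 0.0673 to 0.17.

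In the fit without a block few members were called with BMP5 and BMP7. Hsp90b1 read 16500, 16300 and 13900 normalized counts in BMP5 samples II, III and VI, each below the lowest control, a log2 fall of -0.28 (SE 0.094, limma adjusted p = 0.0351). That call did not hold without BMP5 sample III or VI or without any 1 of the controls (adjusted p 0.0574 to 0.208). The count of called members was 2 for BMP5 and 0 when any of BMP5 III, BMP5 VI, control II, control III or control VI was left out. For BMP7 it was 1, and 4 with the replicate number as a block, which added Hsp90b1 (-0.22, adjusted p = 0.0496), Xbp1 (-0.25, 0.00447) and Ern2 (-0.48, 0.0277). Of all 14746 genes, 4773 were called with BMP7 without the block and 6689 with it. The block also brought Xbp1 past the threshold for BMP5 (-0.24, adjusted p = 0.00692). Without BMP7 sample VI no member was called for BMP7, and without BMP7 III or control IV 2 were. Ddit3 read 97.6 to 152 with BMP5 and 106 to 174 with BMP7, against 94.9 to 123 in the controls, and was not called (95% intervals -0.31 to 0.93 and -0.22 to 1.01). Between BMP5 and BMP7 no member was called, where 0.0136% of all genes were, with log2 differences from -0.19 (Atf4) to 0.12 (Ern2) and interval limits of -0.86 and 0.67, both for Trib3.

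With BMP3 no member was called, and the limma test called 0% of all genes. Of the 14746 genes tested, 110 had an unadjusted p under 0.05; edgeR called 0 and DESeq2 1. The members' log2 values ran from -0.16 (Ern2) to 0.23 (Ddit3), with interval limits from -0.64 for Trib3 to 0.85 for Ddit3 and a lowest unadjusted p of 0.316 for Ern1. BMP3 sample IV and control IV were both low for Trib3, at 144 and 142 normalized counts, and for Asns, at 3240 and 3130.

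Set directly against each other, BMP2 had 1 of 10 members higher than BMP4 (Ern1) and 5 lower (Ern2, Hsp90b1, Ddit3, Xbp1 and Hspa5). Over all genes 33.4% were higher and 33.4% lower. These 6 calls held in all 17 alternative settings run for this pair, scalings included.

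In the order of group means, most neighbouring groups overlapped sample by sample. BMP4 was the highest group for Hspa5, Xbp1, Atf6, Ddit3, Trib3 and Asns, and BMP2 for Ern1 and Atf4. The step from the highest group to the next was free of overlap for Hspa5, Xbp1 and Ern1. At the low end BMP2 stood apart from its neighbour for Hsp90b1 and Ern2. For Atf6 and Asns every pair of neighbouring groups overlapped. Replicate II was the highest sample for Atf6 in all 6 groups and for Atf4 in all 6, a pattern that goes with the replicate number and not with the ligand.

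Tgfb lowered 2 of the 6 members tested and raised none. The lowered count is near the background, since 32.9% of all tested genes were lower. In this table values are TPM, a transcript abundance scaled for transcript length, so levels can be compared between genes. Control means ran from 601 TPM for Hsp90b1 and 348 for Hspa5, through 125 for Atf4, 113 for Asns and 101 for Xbp1, to 12.5 for Atf6, 6.76 for Ddit3, 6.63 for Ern1, 5.78 for Trib3 and 5.74 for Ern2. Atf4, Asns and Xbp1 overlapped their neighbours in that order, as did the last 4, while the steps from Hsp90b1 to Hspa5, Hspa5 to Atf4, Xbp1 to Atf6 and Atf6 to Ddit3 were free of overlap. The Ddit3 level is that of its main row; the second row read 13.4, 12.5 and 0 TPM in controls III, II and I, and with both rows added Ddit3 overlaps Atf6. The members tested are those with a mean of at least 10 TPM, besides the second Ddit3 row, and over all 7880 tested genes 31.4% were higher and 32.9% lower.

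Asns read 125, 110 and 104 TPM in controls III, II and I and 53.9, 58.3 and 47.9 in Tgfb samples III, II and I. The Tgfb mean was 47.2% of the control mean (log2 -1.07, SE 0.105, limma adjusted p = 0.000118), with no overlap. Hsp90b1 read 508, 682 and 612 in the controls and 401, 316 and 387 with Tgfb, again without overlap (-0.70, SE 0.142, adjusted p = 0.00408). Hspa5 read 365, 357 and 321 in the controls and 363, 370 and 378 with Tgfb, which overlapped (0.09, 95% interval -0.10 to 0.29). The ratio of Hspa5 to Hsp90b1 was 0.523 to 0.719 in the controls and 0.906 to 1.17 with Tgfb, with no overlap. Atf4, Xbp1 and Atf6 were not called, with log2 values of -0.08 (95% interval -0.41 to 0.24), -0.02 (-0.21 to 0.17) and 0.12 (-0.16 to 0.40). With the filter lowered to a mean of at least 1 TPM all 10 were tested and 3 fell, the third being Ern2. Over all genes 27.4% were then higher and 29.3% lower, so 3 of 10 lower is near the background. Ern2 read 5.85, 5.598 and 5.77 in controls III, II and I and 2.37, 2.56 and 2.86 with Tgfb (-0.91, SE 0.099, adjusted p = 0.000421). Its Tgfb mean was 45.2% of the control mean, a larger fall than this log2 value gives, because 1 is added to each value. Ddit3, at 5.26 to 8.34 in the controls and 7.95 to 8.62 with Tgfb, was not called (0.26, 95% interval -0.10 to 0.63), nor was Trib3 (0.05, -0.29 to 0.39) or Ern1 (0.07, -0.19 to 0.33). The second Ddit3 row swung from 0 to 27.7 TPM between samples of 1 group and was not called. Summed goblet cell markers were 2191 to 2730 TPM in the controls and 1401 to 1566 with Tgfb, and stem cell markers 3096 to 3587 and 795 to 838; their part in the falls of Ern2, Asns and Hsp90b1 was not tested.

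**Figure D4:**
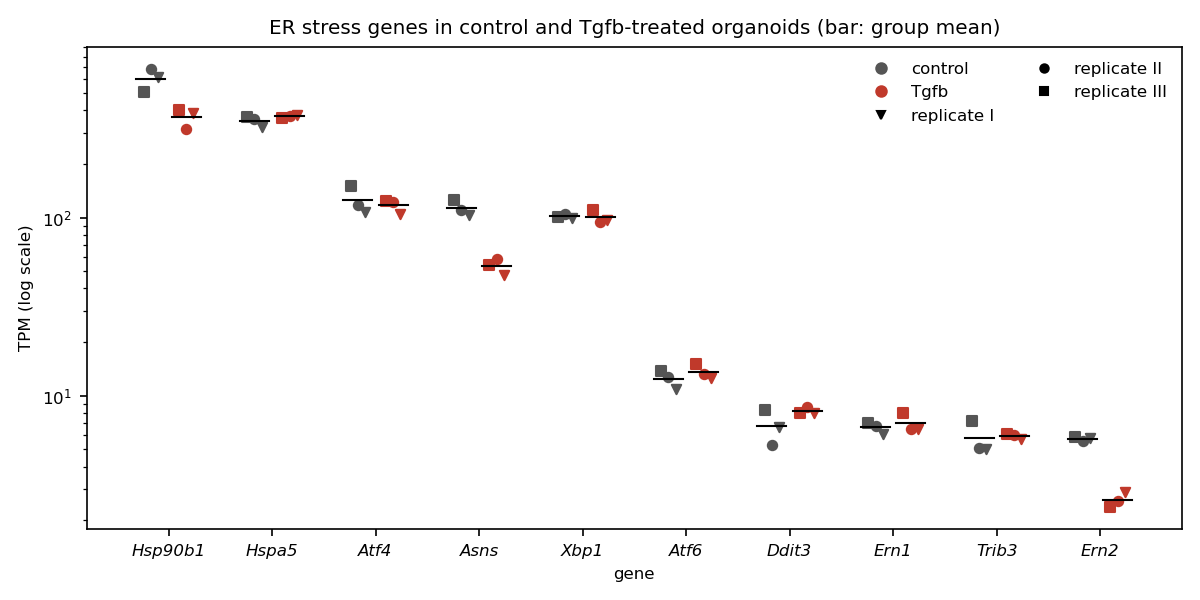
TPM of the 10 ER stress genes in each control (grey) and Tgfb (red) sample on a log axis, ordered by control mean, with a bar at each mean. Hsp90b1, Asns and Ern2 show no overlap between the groups, and the other 7 do.

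The wider pathway was read from 6 gene lists, none holding a member. The shares of all genes to set beside them were 36.8% higher and 38.4% lower with BMP2, and 33.7% and 31.4% with BMP4. Of 22 further ER chaperones and folding enzymes, 17 were lower and 4 higher with BMP2 (median log2 -0.75, against -0.03 for all genes), and 1 was higher and 17 or 18 lower under the other scalings. Ero1b, a disulfide oxidase of secretory cells, fell from 348 ± 39.1 (SD, n = 4) to 63.2 ± 8.72 (SD, n = 4) normalized counts, a log2 change of -2.45 (SE 0.121, limma adjusted p = 2.82e-12), and Dnajb9, a BiP co-chaperone induced by IRE1 and XBP1, rose from 798 ± 106 to 1888 ± 455 (1.22, adjusted p = 1.79e-06). With BMP4 11 were higher and 5 lower (median 0.21), but 5 and 10 after quantile normalization and 4 and 9 with the same total. Dnajb9 rose furthest there too (1.85, SE 0.177, adjusted p = 4.7e-08) and Pdia6, a protein disulfide isomerase, fell (-0.58, adjusted p = 3.12e-05). The lower count was 2 without BMP4 sample III and 3 without control II.

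Genes of ER-associated degradation, which extracts misfolded proteins for the proteasome, were higher for 10 of 17 with BMP2 and lower for 2. Among all genes 36.8% were higher and 38.4% lower with BMP2, and 33.7% and 31.4% with BMP4. The BMP2 split of the list was 4 and 6 after quantile normalization and 3 and 8 with the same total, and 4 were lower without BMP2 sample II. Of all 14746 genes, those 2 scalings called 5352 higher and 5679 lower, and 3627 and 7783, with BMP2, so the list is near the background with the same total. With BMP4 12 were higher and 1 lower (median 0.74; 0 lower without BMP4 III, BMP4 VI or control IV), and 11 and 3, or 10 and 3, under those 2 scalings. Ube2j1, an ER-anchored ubiquitin-conjugating enzyme, rose with BMP2 from 1725 ± 126 to 4728 ± 209 (SD, n = 4 each), a log2 change of 1.46 (SE 0.087, limma adjusted p = 3.13e-11). Edem2, which trims mannose from misfolded glycoproteins, fell with BMP2 (-0.62, adjusted p = 3.9e-05), and Os9, a lectin of the same pathway, rose with BMP4 (0.99, adjusted p = 1.03e-07).

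ER entry and glycosylation genes were lower for 15 of 22 and higher for 4 with BMP2 (median -0.64), and none was higher under either other scaling, where 17 and 20 were lower. Among all genes 38.4% were lower and 36.8% higher with BMP2, and 31.4% and 33.7% with BMP4. Of all 14746 genes, quantile normalization and the same total called 5679 and 7783 lower with BMP2, and 5010 and 6864 with BMP4. The 4 higher became 2 without control III or control IV. Spcs3, a signal peptidase subunit, fell by 1.26 on the log2 scale (adjusted p = 8.54e-10), while Spcs1 of the same complex rose by 0.44 (adjusted p = 1.46e-05) but stood at -0.02 with the same total. With BMP4 7 were higher and 4 lower, against 2 and 14 and 1 and 13 under the 2 scalings and 7 lower with edgeR, and 4 were higher without BMP4 sample II. Sec11c, a catalytic signal peptidase subunit, fell (-0.55, limma adjusted p = 6.79e-05); the rise of Srp54a (0.66, adjusted p = 0.000161) is uncertain because near-identical copies of this gene exist in the mouse genome.

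Targets of ATF4 and the integrated stress response were split. With BMP2 7 of 25 tested were higher and 12 lower (median -0.45), and with BMP4 9 were higher and 6 lower (median 0.06; 8 and 8 after quantile normalization, 6 and 9 with the same total). Atf3, a stress transcription factor, rose with BMP2 from 236 ± 190 to 2652 ± 886 normalized counts (SD, n = 4 each), log2 3.76 (SE 0.486, limma adjusted p = 1.09e-06). Cth, which makes cysteine from cystathionine, fell with BMP2 from 1950 ± 190 to 310 ± 109 (-2.70, adjusted p = 2.77e-10). Over all genes 36.8% were higher and 38.4% lower with BMP2, and 33.7% and 31.4% with BMP4. Chac1, a glutathione-degrading enzyme, rose with BMP4 (1.67, adjusted p = 0.000507) and Slc7a5, a large neutral amino acid transporter, fell (-1.03, adjusted p = 0.000349). Of 12 aminoacyl-tRNA synthetases, 3 were higher and 5 lower with BMP2 (2 and 9 under both scalings), with Cars, the cysteine enzyme, up by 1.32 and Eprs, the glutamate and proline enzyme, at -0.87. With BMP4 6 were higher and 4 lower, against 0 and 5 after quantile normalization and 1 and 6 with the same total, and 2 lower without BMP4 III or control II. Nars, the asparagine enzyme, rose by 0.78 with BMP4 (0.14 and adjusted p = 0.157 after quantile normalization), and Iars, the isoleucine enzyme, was at -0.34 (adjusted p = 0.00981).

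Among 24 sensors and eIF2alpha regulators, 12 were higher and 10 lower with BMP2 and 9 and 11 with BMP4. The shares of all genes were 36.8% and 38.4% with BMP2, and 33.7% and 31.4% with BMP4. With the same total the list counts were 9 and 12, and 7 and 14. Of all 14746 genes, the same total called 3627 higher and 7783 lower with BMP2, and 3100 and 6864 with BMP4. The PERK gene Eif2ak3, the sensor that is not among the 10 members, rose with BMP2 from 904 ± 168 to 6172 ± 562 normalized counts (SD, n = 4 each), log2 2.78 (SE 0.142, limma adjusted p = 3.99e-12). It also rose with BMP5 (1.09, SE 0.153, adjusted p = 3.71e-05) and BMP7 (1.11, SE 0.153, adjusted p = 2.16e-05), where Atf4, Ddit3 and Trib3 were not called. Creb3l1, an ER-bound transcription factor of secretory cells, fell with BMP2 from 704 ± 79.7 to 81.6 ± 12.8 (-3.10, adjusted p = 2.25e-13). Creb3l3, its liver and gut relative, rose with BMP4 from 1032 ± 280 (SD, n = 4) to 7550 ± 286 (SD, n = 3), log2 2.91 (adjusted p = 3.21e-08), and Eif2ak4, the amino acid sensing kinase GCN2, fell (-1.50, adjusted p = 6.71e-09).

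**Figure D5:**
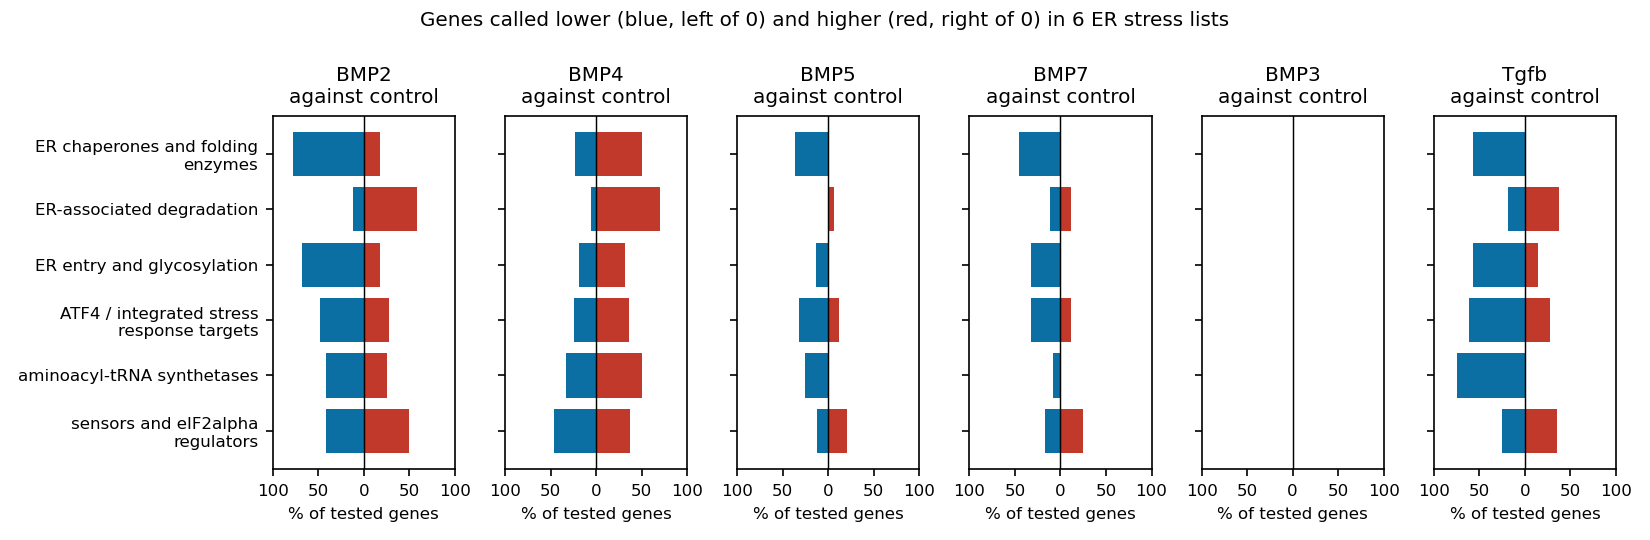
Percent of the tested genes of each of 6 ER stress lists that were called higher (red, right of 0) or lower (blue, left of 0), 1 panel per comparison. Chaperones and folding enzymes are mostly lower with BMP2 (17 of 22) and Tgfb (12 of 21), degradation genes mostly higher with BMP4 (12 of 17), and BMP3 has no bar. Among all genes 38.4% were lower with BMP2, 32.9% lower with Tgfb and 33.7% higher with BMP4.

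With BMP5 8 of the 22 chaperones and folding enzymes were lower and none higher, and with BMP7 10 were lower and none higher; the 2 comparisons share their controls. Among all genes 9.87% were lower and 16.5% higher with BMP5, and 13.2% and 19.2% with BMP7. The replicate block gave 13 and 15 chaperones and folding enzymes lower, and BMP5 gave 5 without BMP5 sample III or VI. Of all 14746 genes, the block called 2593 lower with BMP5 and 3148 with BMP7. Ero1b stood at -0.72 with BMP5 (SE 0.130, limma adjusted p = 0.000451) and -0.98 with BMP7 (SE 0.130, adjusted p = 1.56e-05), Creb3l1 at -0.68 and -0.79, Cth at -1.68 and -1.60, and Ube2j1 at 0.35 and 0.49. Of these, the Ube2j1 rise with BMP5 was lost without BMP5 sample VI (adjusted p = 0.0826). Nupr1, a small stress-induced chromatin protein, rose by 1.45 with BMP5 (adjusted p = 0.000686) and 1.21 with BMP7 (adjusted p = 0.00246). ATF4 targets were lower for 8 of 25 and higher for 3 with each, and the block gave 15 and 13 lower; 5 were lower with BMP5 without BMP5 VI or control III, and with BMP7 4 without BMP7 II and 3 without BMP7 VI. ER entry genes were lower for 3 of 22 with BMP5 and 7 with BMP7 (11 and 14 with the block), with ranges of 0 to 11 and 3 to 9 over the fits that left out 1 sample, the lowest without BMP5 III and without BMP7 II or VI. In all 6 lists BMP3 had no call.

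With Tgfb 12 of 21 tested chaperones and folding enzymes were lower and none higher (median -0.29, against -0.01 for all genes), with Sdf2l1, an ER folding cofactor, at -0.83 (SE 0.079, limma adjusted p = 0.000102). Among all tested genes 31.4% were higher and 32.9% lower with Tgfb. Degradation genes were higher for 6 of 16, near that background, and lower for 3. Ube2j1 stood at 0.57 (adjusted p = 0.00121) and Herpud1, a component of the retrotranslocation complex, at -0.52 (adjusted p = 0.00175). ER entry genes were lower for 12 of 21 and higher for 3; Spcs2 of the signal peptidase fell (-0.65, adjusted p = 0.000935), and the rise of Sec63, a translocon partner (0.28, adjusted p = 0.0256), was lost without control I or II or Tgfb II or III (adjusted p 0.0656 to 0.0736), as the count of higher genes fell to 0 without control I or Tgfb III and to 1 without control II or Tgfb II. ATF4 targets were lower for 11 of 18 and higher for 5 (median -0.99). Cth fell from 99.5 ± 11.3 to 10.4 ± 0.591 TPM (SD, n = 3 each; log2 -3.13, adjusted p = 1.03e-06), and Nupr1 rose from 36.5 ± 5.49 to 204 ± 3.02 (2.46, adjusted p = 4.1e-06). None of 12 aminoacyl-tRNA synthetases was higher and 9 were lower, with Yars, the tyrosine enzyme, at -0.76 (adjusted p = 0.000511). Among 20 sensors and regulators 7 were higher and 5 lower (2 lower without control II), with Creb3l2 at 2.15 (adjusted p = 2.81e-06) and Creb3l1 at -1.37 (adjusted p = 3.29e-05), both ER-bound transcription factors.

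The genes most like each member over the 20 samples of the BMP table were found by Pearson's r of log2 values among 11856 genes with a mean of at least 50, as a description in which ligand, depth and scaling are shared. Ddit3 was most like Dnajb9 (r = 0.975) and Nr1d1 (0.956), and Trib3 most like Aars (0.964) and Chac1 (0.956). Hsp90b1 was most like Lman1 (0.987) and Cars2 (0.986), and Xbp1 most like Cope (0.979) and Hook2 (0.975). Lman1, a cargo receptor, and Cope, a coat subunit, belong to transport between ER and Golgi. Whether the nearest genes as a set share a function was not tested. For Ern2 the nearest genes were Sapcd2 (0.979) and Plcb1 (0.976), for Atf4 Mrpl43 (0.962) and Ftl1 (0.957), and for Ern1 Spire2 (0.952) and Ammecr1l (0.937). Lower likeness was found for Atf6, with Ptpmt1 at 0.930, Asns, with Gpt2 at 0.913, and Hspa5, with Ghitm at 0.910.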

How the data were processed

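RNA-seq of mouse organoids was analysed from 2 deposited tables, 20 BMP-table and 6 Tgfb-table samples, with groups taken from the labels; the table of mesenchymal cells was not used. Per the submitters' processing notes, Trim Galore, Salmon, DESeq2 and GRCm39 were involved; versions and roles are not given in the sources used here, and the labels do not assign samples to the 2 sequencing runs. In the BMP table the deposited values are a signal, read counts of each gene after division by a size factor of the sample: 99.32% of 180721 values at or under 20 reads were whole within 0.05 reads, 1 read being worth 0.826 to 1.28. The Tgfb table holds TPM as deposited by the authors, of unknown depth. Fold changes are on log2(value + 1) and are smaller than true folds for low genes. The effect is slight for the members in the BMP table and larger for those at a few TPM, such as Ern2. The test was limma 3.58.1 with an intensity trend, over genes with a mean of at least 10, all 6 BMP-table groups in 1 fit, Benjamini-Hochberg adjusted, threshold 0.05, tested on simulated data. The foreseen test was kept for both units. Alternatives were pseudocounts of 0.1 and 5, mean filters of 1 and 50, quantile normalization, the same total (Tgfb: median-of-ratios scaling), the replicate number as a block, fits of only the groups compared, edgeR 4.0.16 and DESeq2 1.42.0 on recovered reads, and leaving out each sample. Same-numbered samples deviated together in every pair for BMP3 (r 0.281 to 0.553), BMP4 (0.19 to 0.225), BMP5 (0.158 to 0.262) and BMP7 (0.236 to 0.294), a pairing read from the data, since the labels give only the number. Besides the members, the text names, per list and comparison, the genes with the largest called rise and fall among those averaging 50 or more (10 TPM) whose groups did not overlap, and the 2 genes most like each member. Members and lists were chosen with earlier results of these data known. Replicates of the BMP table differed beyond counting noise; this was not tested for TPM. Python 3.11.15 was used for tables and figures.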

Additional observations from a re-analysis of the deposited data

Results flagged for a closer look

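Of 20 groups of 4 samples examined, 1 held a sample far from the others, and chance flags about 1 in 20. Atf6 read 2010 normalized counts in control II against 1520, 1580 and 1590 in the other controls, a gap of 0.857 of the whole range. Without that sample the BMP2 rise of Atf6 was 0.37 with an adjusted p of 0.0163 by limma, against 0.0571 with it. Replicate II was, however, the highest Atf6 sample in every group, and BMP2 sample II, at 2350, stayed in that fit. Leaving out control II alone therefore makes the comparison uneven, and the lower adjusted p is no firmer evidence of a rise.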

How the results depend on the processing

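Of the calls against the controls, Ddit3 and Trib3 with BMP2 and BMP4, Atf4, Hsp90b1 and Ern2 with BMP2, Xbp1 with BMP4, and Asns and Hsp90b1 with Tgfb passed in every alternative run. Ern1 with BMP2, Hspa5, Atf4 and Atf6 with BMP4, Hsp90b1 and Asns with BMP5 and Asns with BMP7 each missed the threshold in at least 1. Of 541 member values under other settings 485 kept direction and call and 23 turned sign; of 396 with 1 sample left out, 355 and 23. With quantile normalization the log2 value became -0.49 for Hspa5, -0.064 for Atf6 and -0.46 for Asns with BMP2, -0.58 for Hsp90b1 and -0.18 for Asns with BMP4, 0.0001 for Hspa5 with BMP5, -0.034 for Hspa5 and -0.042 for Atf4 with BMP7, and -0.023 for Atf4 between BMP2 and BMP4. With the same total it became -0.35 for Hspa5, -0.18 for Atf6, -0.42 for Asns and -0.021 for Spcs1 with BMP2, -0.36 for Hsp90b1, -0.30 for Ern1, -0.018 for Atf6 and -0.13 for Asns with BMP4, -0.069 for Hspa5 with BMP7 and -0.0075 for Atf4 between BMP2 and BMP4. With edgeR it was -0.0073 for Asns with BMP2 and -0.061 for Hsp90b1 and -0.010 for Ern1 with BMP4, and with DESeq2 -0.0057 for Hspa5 with BMP7. The count of called members for BMP5, 2, was 1 with a mean filter of 1 and 1 with only the groups compared. For BMP7, 1, it was 2 with quantile normalization, edgeR or only the groups compared and 4 with the same total or DESeq2. The cause was not tested. With the replicate number as a block the BMP7 count was 4 and Trib3 with BMP7 was -0.10; the block gave 7 for BMP2 (adding Atf6, 0.27, adjusted p = 8.98e-05), 7 for BMP4, 3 for BMP5, 0 for BMP3 and 2 for Tgfb. For BMP2 the same-numbered samples II, VI and IV deviated together (r 0.195, 0.308 and 0.421) and those of number III did not (0.018). For Tgfb r ran from -0.019 to 0.141.

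Leaving out 1 sample at a time, the called count ranged from 0 to 2 for BMP5 and from 0 to 2 for BMP7. Values near 0 crossed it. With BMP2 Asns ranged from -0.082 to 0.14. With BMP4 Hsp90b1 ranged from -0.0019 to 0.057. With BMP5 Hspa5 ranged from -0.073 to 0.036, Atf6 from -0.13 to 0.064 and Trib3 from -0.28 to 0.22. With BMP7 Hspa5 ranged from -0.036 to 0.049, Ern1 from -0.17 to 0.0105, Atf4 from -0.056 to 0.19 and Trib3 from -0.18 to 0.32. Between BMP2 and BMP4 Atf4 ranged from -0.0825 to 0.14 and Atf6 from -0.20 to 0.043. With Tgfb Xbp1 ranged from -0.087 to 0.0198 and Atf4 from -0.18 to 0.057. Of 684 list counts under other settings 75 moved by more than 1.5 times, and 56 of 504 with 1 sample left out. Depth limits the precision of low members: Ddit3 rested on 107 to 138 recovered reads per control and Ern2 on 31 to 77 per BMP2 sample. For Tgfb the depth is unknown.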
